A study of Citrullus lanatus with 26 samples.

Results

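hbr-miR6485 is 1 of the 208 small RNA names counted in watermelon (Citrullus lanatus) fruit flesh of 6 ages, and 1 of the 29 that are named after a plant species and a numbered miRNA family, called names of known families here, the rest being novel_miR names. It was chosen by its name, and for the steep difference at the last age that earlier results on these libraries had shown. The counts of all 6 ages therefore chose it, and its own values are given as a description, with no test. The libraries hold flesh of the cultivar 97103 at 0, 1, 5, 10, 20 and 30 DAP, the age unit of the labels, with 3 libraries per age and 18 in all. No treatment is labelled. The labels do not say whether the 3 libraries of an age came from separate fruits or plants, so the spread between them may be technical. A second set of 8 libraries, of 97103 and of the germplasm PI296341FR at 10 and 30 DAP, was not analysed here for this name. The tables count miRNA names only, and the flesh label was not checked against marker genes.

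Plant miRNAs are short RNAs cut from hairpin precursors by Dicer-like enzymes and loaded into Argonaute proteins, which they guide to complementary messenger RNAs. Old families are shared by most flowering plants and mostly act on transcription factors that set the timing of growth, leaf and flower form, and fruit development. Other families are known from few species. A name such as hbr-miR6485 says that reads were assigned to a reference entry first described in another plant, here hbr for Hevea brasiliensis, the rubber tree. Of the 29 names, 25 carry the melon prefix cme and 1 each the prefixes hbr, cpa (papaya), gma (soybean) and mdm (apple). No target of hbr-miR6485 is given in the sources used here, and its sequence and its place in the watermelon genome were not analysed here.

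hbr-miR6485 was close to the limit of detection in young flesh, low at 20 DAP and well counted at 30 DAP. The 3 libraries at 0 DAP had 1, 1 and 0 counts. Those at 1 DAP had 2, 1 and 0 counts, those at 5 DAP had 0, 1 and 3, and those at 10 DAP had 1, 0 and 6. At 20 DAP the libraries had 8, 5 and 4 counts, and at 30 DAP they had 175, 114 and 195. All 3 libraries at 30 DAP were above every younger library, and all 3 at 20 DAP were above 11 of the 12 libraries at 0 to 10 DAP in raw counts, the exception being the library with 6 at 10 DAP, which lay above 2 of them. Of the 517 counts of the name, 484 came from the 3 libraries at 30 DAP and 16 from the 12 libraries at 0 to 10 DAP, 4 of which had none. In bulk flesh, a change in the number of cells that hold a small RNA and a change in its amount per cell cannot be told apart.

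**Figure D1:**
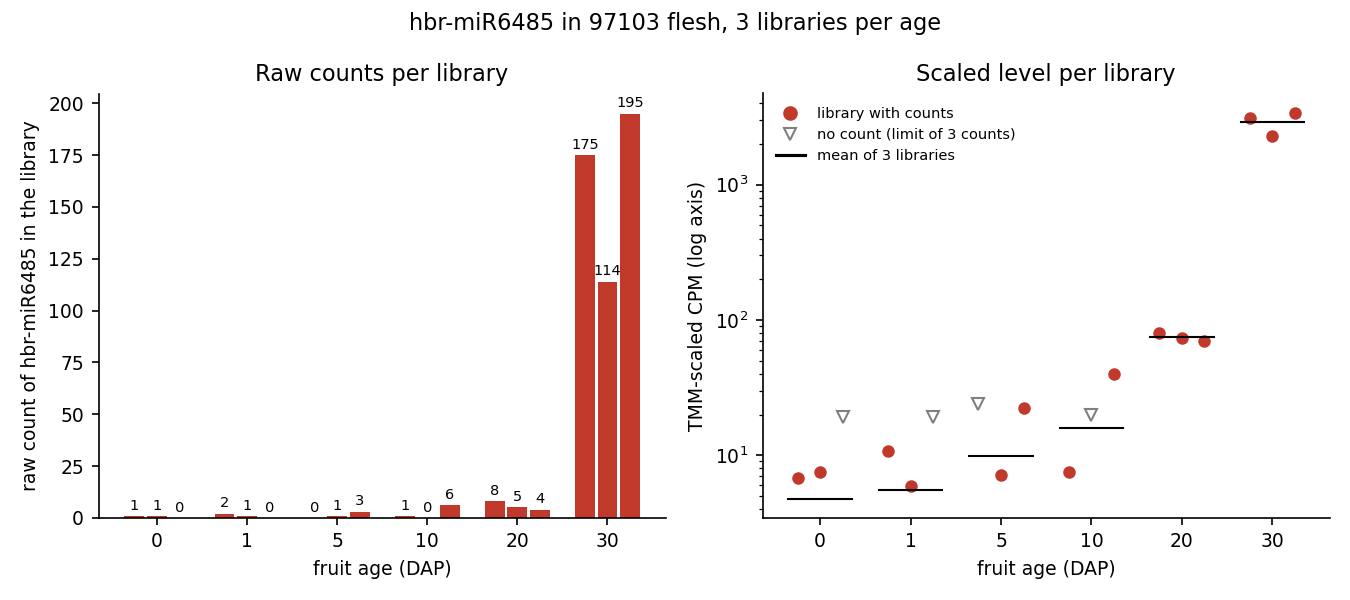
The left panel shows the raw count of hbr-miR6485 in each of the 18 libraries by fruit age in DAP, and the right panel its TMM-scaled CPM on a log axis, with 1 point per library and a bar for the mean of 3. Open triangles mark the limit that a count of 0 allows (3 counts). The 3 libraries at 30 DAP hold 175, 114 and 195 counts, and no younger library holds more than 8.

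The listed totals were 62050 to 107944 counts per library at 20 and 30 DAP and 94915 to 153755 at the younger ages. At the pooled share of the 30 DAP libraries, the totals would have given 613 counts at 0 DAP, where 2 were found, 668 at 10 DAP, where 7 were found, and 444 at 20 DAP, where 17 were found. A library without a count allows a level of up to 22.1 to 26.2 CPM (counts per 1000000 listed counts, here unscaled), taking 3 counts as the floor. Among the libraries at 30 DAP the lowest unscaled level was 1417 CPM (exact 95% interval 1169 to 1701). No molecular identifiers are mentioned in the labels, so these intervals and limits leave out every error other than counting.

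In CPM scaled with trimmed-mean (TMM) factors, hbr-miR6485 averaged 4.79 ± 4.16 at 0 DAP, 5.57 ± 5.40 at 1 DAP, 9.85 ± 11.5 at 5 DAP, 15.8 ± 21.2 at 10 DAP, 74.6 ± 5.66 at 20 DAP and 2928 ± 582 at 30 DAP (SD, n = 3 each). The means ascend with age, but the order of the 4 youngest ages is not resolved. Their libraries overlap, with ranges of 0 to 7.58 CPM at 0 DAP, 0 to 10.8 at 1 DAP, 0 to 22.5 at 5 DAP and 0 to 39.9 at 10 DAP. The libraries at 20 DAP, at 69.4 to 80.6 CPM, lie above all of these, and those at 30 DAP, at 2279 to 3404 CPM, above all at 20 DAP. The small SD at 20 DAP understates the error of that mean. It is 7.59% of the mean, while counting error alone amounts to 42.0% of a mean of 5.67 counts per library. At 30 DAP the spread between libraries, at 19.9% of the mean, was larger than the counting error of 7.87%.

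The pooled counts describe the ages before the last. The 20 DAP libraries held 17 counts and the 12 libraries at 0 to 10 DAP held 16, a ratio of TMM-scaled counts of 8.42 (exact 95% counting interval 3.998 to 17.8). Against 10 DAP alone the ratio at 20 DAP was 4.69 (1.85 to 13.4). The 10 DAP value rests on 1 library, replicate 3, which holds 6 of its 7 counts. Within the younger ages, 10 DAP had 7 counts and 0 to 5 DAP had 9, a ratio of 2.41 (0.764 to 7.29). These intervals cover counting error alone, not the spread between libraries, and are no test of when the level changes.

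The step from 20 to 30 DAP was the larger one. The level was 2928 CPM at 30 DAP, against 74.6 CPM at 20 DAP, and the pooled ratio was 39.1 (exact 95% counting interval 24.2 to 67.6). edgeR gave log2 fold changes of 0.30 (SE 1.27) for 1 against 0 DAP, 0.67 (SE 1.13) for 5 against 1 DAP and 0.64 (SE 0.98) for 10 against 5 DAP. For 20 against 10 DAP it gave 2.16 (SE 0.72), and for 30 against 20 DAP 5.26 (SE 0.40). The value for 20 against 10 DAP depends on replicate 3 of 10 DAP, the library with 6 counts, and was 4.06 (SE 0.92) without it. These comparisons share the libraries of the age between them. The last step makes up 58.3% of the log2 difference of 9.03 (SE 0.52) between 30 and 0 DAP, and the last 2 steps together 82.2%. That total rests on 2 counts at 0 DAP, so both percentages are imprecise. The pooled ratio for 30 against 0 DAP was 645 (exact 95% counting interval 178 to 5344). Both pooled ratios are of TMM-scaled counts. Unscaled, the ratio was 306 (84.4 to 2538) for 30 against 0 DAP and 26.1 (16.2 to 45.2) for 30 against 20 DAP. Over the same 30 against 20 DAP contrast, edgeR called 40 of 204 tested names (19.6%) at an adjusted p under 0.05, 23 of them higher (11.3%) and 17 lower (8.33%). The 23 include hbr-miR6485, and that call is no test of it, since its own values chose it. Some tested names have identical counts, such as novel_miR_14 and novel_miR_60, and each is counted in these shares.

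hbr-miR6485 had the largest log2 fold change of the 204 tested names for 30 against 20 DAP. The next was novel_miR_93 at 2.39 (SE 0.30), with novel_miR_2 at 2.38 (SE 0.30), whose levels are nearly the same as those of novel_miR_93. novel_miR_40 was at 1.60 (SE 0.27) and novel_miR_106 at 1.46 (SE 0.21). These novel_miR names come with no sequence in the tables. The median of all 204 names was -0.03. At earlier steps other names had the largest values, with 6.63 for novel_miR_14 and novel_miR_60 at 5 against 1 DAP and 4.75 for novel_miR_101 at 20 against 10 DAP, where hbr-miR6485 was in place 6. For 30 against 0 DAP it was in place 2, behind novel_miR_101 at 10.56.

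**Figure D2:**
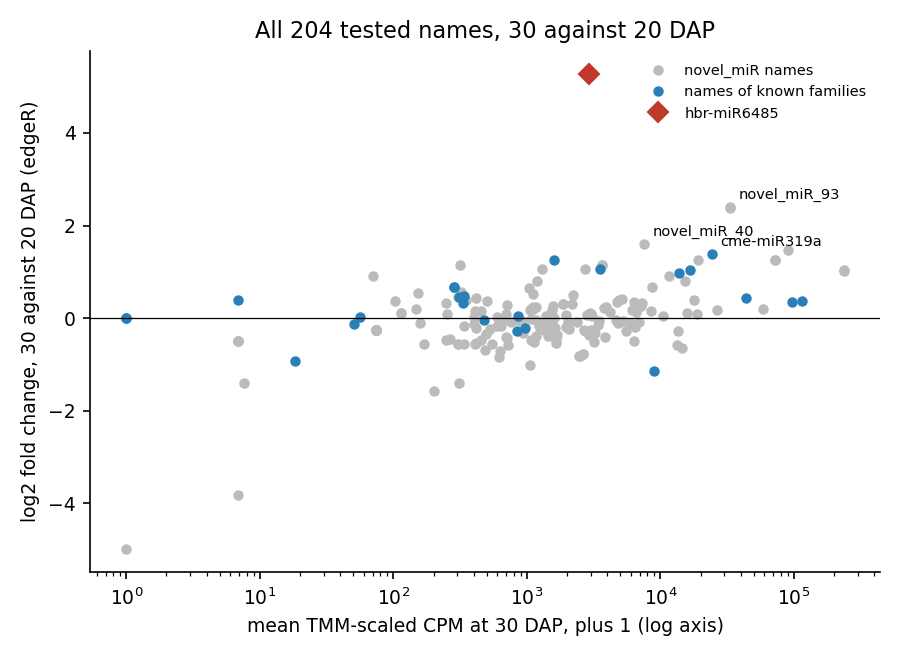
Each point is 1 of the 204 tested names, with the mean TMM-scaled CPM at 30 DAP plus 1 on a log axis and the edgeR log2 fold change for 30 against 20 DAP on the other axis. hbr-miR6485, the diamond, is at 5.26, and the next name, novel_miR_93, is at 2.39.

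The size of the step depends on the scaling. The libraries had TMM factors between 0.53 and 0.70 at 30 DAP, against 0.89 to 0.93 at 20 DAP. Without them the median of all names lay at -0.59, and hbr-miR6485 stood at 4.69, which is 5.28 above that median. With TMM factors it was 5.29 above the median, and this closeness follows from the scaling, which moves all names alike. For the same reason its place among the names could hardly change with the factors. A ratio within each library needs no factors. Per 1000 counts of cme-miR159a, the most abundant name of a known family, the libraries at 30 DAP had 36.5, 23.0 and 21.5 counts of hbr-miR6485, against 0.935, 0.777 and 0.827 in those at 20 DAP. No library at 0 to 10 DAP had more than 0.292. Such a ratio shows unequal change of the 2 names, and cme-miR159a itself stood at 0.37 (SE 0.31, edgeR adjusted p = 0.472) for 30 against 20 DAP. The TMM-scaled means of cme-miR159a were 106447, 130621, 247057 and 152126 CPM at 0, 1, 5 and 10 DAP, against 88287 CPM at 20 DAP. The ratios at 0 to 10 DAP are therefore low in part through a higher denominator.

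At 30 DAP hbr-miR6485 was in place 9 by level among the 29 names of known families, against place 19 at 20 DAP. It stood in place 8, 9 and 9 in the single libraries at 30 DAP and in place 19, 19 and 20 in those at 20 DAP. At 0, 1, 5 and 10 DAP its mean was in place 27, 26, 26 and 22. Among all 208 names its mean was in place 64 at 30 DAP, 190 at 20 DAP and 199 to 206 at the younger ages. It held 0.142% to 0.218% of all listed counts in the 30 DAP libraries, and 0.887% of the counts of known families there against 0.0305% at 20 DAP. Levels of different names are counts per name and are not corrected for length, which the tables do not give.

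Its neighbours in level at 30 DAP belong to conserved families. Just above it stood cme-miR159b, of the family that targets GAMYB-type transcription factors, at 3540 ± 725 CPM, and cme-miR162, whose family targets DCL1, at 9031 ± 2487 CPM. Just below it stood cme-miR2111a, of a phosphate-responsive family that moves in the phloem, at 1601 ± 527 CPM, and cme-miR167b, whose family targets auxin response factors, at 970 ± 702 CPM (SD, n = 3 each). The means of hbr-miR6485 and cme-miR159b differ by less than the SD of cme-miR159b, so their order is not resolved. cme-miR159a led with 114134 ± 39128 CPM at 30 DAP. Between 20 and 30 DAP hbr-miR6485 moved past 10 names of known families, cme-miR2111a among them, which had stood at 669 ± 99.7 CPM at 20 DAP.

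**Figure D3:**
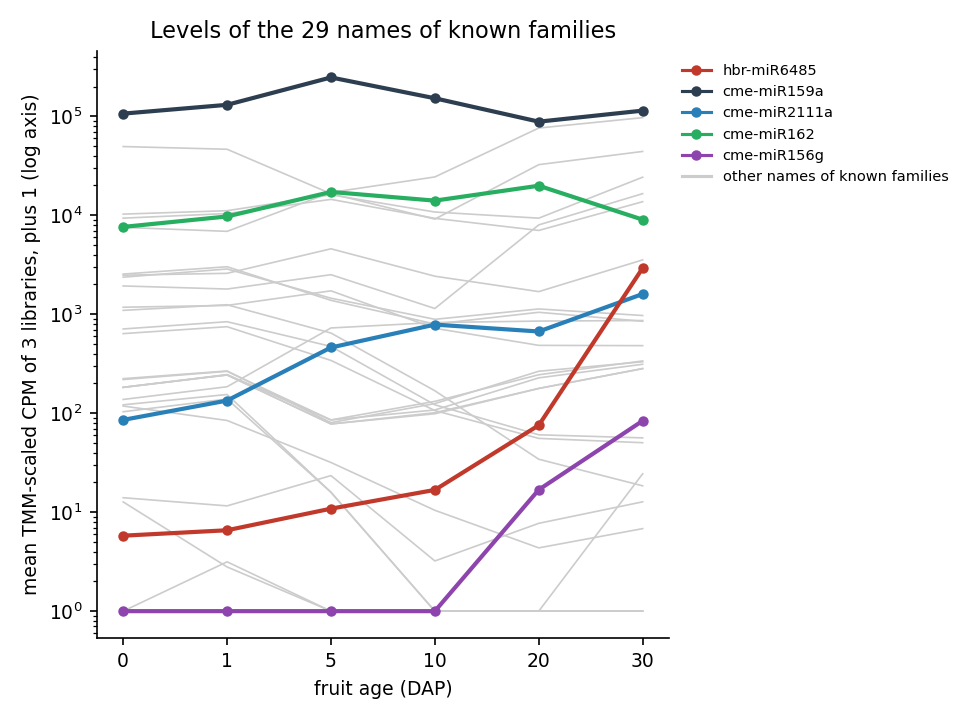
Each line is 1 of the 29 names of known families, with fruit age in DAP on the horizontal axis and the mean TMM-scaled CPM of 3 libraries plus 1 on a log axis. hbr-miR6485 (red) lies near the bottom up to 10 DAP, at 15.8 CPM there, and passes cme-miR2111a (blue) between 20 and 30 DAP, where they reach 2928 and 1601 CPM.

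Of the 24 other tested names of known families, 5 rose and 1 fell at 30 against 20 DAP, and 18 were not called, beside 11.3% higher and 8.33% lower over all 204 tested names. The rises were cme-miR319a (1.37, SE 0.25, edgeR adjusted p = 0.000628), of the TCP-targeting family, and cme-miR319b (0.96, adjusted p = 0.0124) of the same family. cme-miR2111a rose by 1.26 (adjusted p = 0.0111), cme-miR159b by 1.07 (adjusted p = 0.0224) and cme-miR164c, of the NAC-targeting family, by 1.05 (adjusted p = 0.0135). cme-miR162 fell by 1.14 (adjusted p = 0.00108). Without scaling factors cme-miR319a was the 1 rise left, and cme-miR162, cme-miR167b and cme-miR167c were called lower. Over all 204 tested names the fit without factors called 13 higher and 80 lower, so the shares given above do not apply to it. The family list of ripening regulators (miR156, miR157, miR164, miR172 and miR1917) had 7 tested names, of which 1, cme-miR164c, rose, again beside 11.3% of all tested names. Its median log2 fold change was 0.49, beside -0.03 for all 204 names, but 5 of the 7 are miR156 names with nearly the same levels, none of them called (edgeR adjusted p = 0.338 to 0.664).

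The list of phloem-mobile families (miR395, miR398, miR399, miR827 and miR2111), chosen with another tissue in mind, had 1 listed name, cme-miR2111a. A list of 1 name cannot measure how much of another tissue the flesh held. cme-miR2111a averaged 84.6, 133, 460 and 785 CPM at 0, 1, 5 and 10 DAP, 669 CPM at 20 DAP and 1601 CPM at 30 DAP. It was thus already higher by 10 DAP, where hbr-miR6485 was at 15.8 CPM, and stood at -0.22 on the log2 scale for 20 against 10 DAP, where hbr-miR6485 stood at 2.16. Both were higher at the last step, and there the libraries of cme-miR2111a lay between 1060 and 2112 CPM at 30 DAP, against 590.0 to 781 CPM at 20 DAP. Its part in the difference of hbr-miR6485 was not tested.

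The level of hbr-miR6485 was held almost wholly by the last age. Of the sum of its 6 age means, 96.4% lay at 30 DAP, 2.45% at 20 DAP and 0.52% at 10 DAP. This was the highest share among the 204 tested names, whose median was 16.3%, and an equal level at all ages would give 16.7%. novel_miR_40 followed with 66.8%, then novel_miR_93 and novel_miR_2 with 62.8% each and novel_miR_101 with 62.5%. Of the names left out of the test for low counts, gma-miR5368 had 91.6% and cme-miR156g 83.9%, on 4 and 14 counts at 30 DAP. The gap below hbr-miR6485 thus depends in part on the filter. novel_miR_101 had 35.7% at 20 DAP, so it was already abundant at that age, at 8783 ± 1309 CPM, where hbr-miR6485 was at 74.6 ± 5.66 CPM. In 21 of the 204 tested names (10.3%) all 3 libraries at 30 DAP were above all 15 younger ones, hbr-miR6485 included. Of known families these were also cme-miR164c, cme-miR319a and cme-miR319c. This comparison used TMM-scaled CPM and depends on the scaling. cme-miR319c was not called for 30 against 20 DAP (0.35, SE 0.27, edgeR adjusted p = 0.436). From unscaled group means its log2 difference was -0.225.

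**Figure D4:**
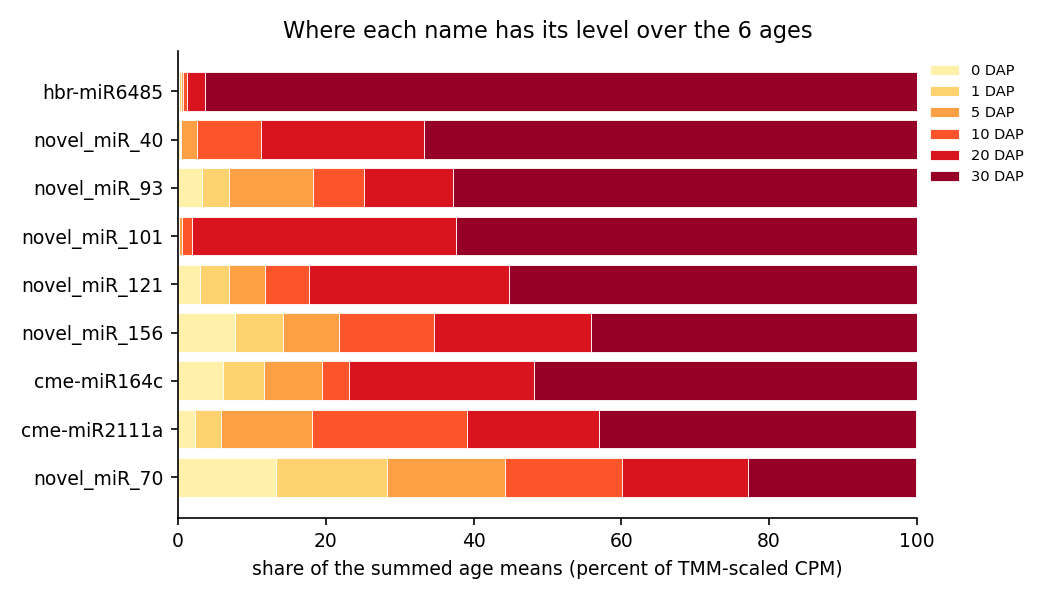
Each bar splits the sum of a name's 6 age means of TMM-scaled CPM into the percent held at each age, for hbr-miR6485 and 8 names chosen for likeness, share or size of change. hbr-miR6485 has 96.4% at 30 DAP, novel_miR_40 66.8% and novel_miR_70 22.7%.

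No other name had the same 18 counts, and the names most like hbr-miR6485 differed from it in size. Likeness was measured as Pearson's r of log2 TMM-scaled CPM over the 18 libraries, which share 6 ages, and is a description. The highest values were 0.91 for novel_miR_156, 0.90 for novel_miR_70, 0.89 for novel_miR_121 and novel_miR_30, and 0.88 for novel_miR_2. The levels of novel_miR_121 and novel_miR_30 are nearly the same, at 116130 and 115913 CPM at 20 DAP. By Spearman's rho 1 of these 5 names stayed among the first 5. novel_miR_156 had 2728 ± 426 CPM at 30 DAP, close to the level of hbr-miR6485, but 1305 ± 347 CPM at 20 DAP and 472 ± 122 CPM at 0 DAP. novel_miR_70 had 5155 ± 164 CPM at 30 DAP, against 3882 ± 136 CPM at 20 DAP, a log2 fold change of 0.41. Pearson's r takes no account of such differences in size. Of known families the most alike were cme-miR164c (r = 0.84), cme-miR319c (0.77) and cme-miR2111a (0.69). cme-miR164c was at 16539 ± 4548 CPM at 30 DAP, against 7996 ± 905 CPM at 20 DAP. Of the 203 other tested names 1 had an r over 0.9, and 11 had an r over 0.8.

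Of the 29 names, 4 did not pass the filter on low counts, and hbr-miR6485 passed it only through its libraries at 30 DAP. Among those 4, cme-miR156g and gma-miR5368 also had most of their counts at 30 DAP. They were named after their values were seen. cme-miR156g, of the family that targets SPL transcription factors, had 6, 1 and 7 counts at 30 DAP, 3, 0 and 1 at 20 DAP and none at 0 to 10 DAP. gma-miR5368 had 2, 0 and 2 counts at 30 DAP and 1 count in the other 15 libraries together. Both were far below hbr-miR6485 at 30 DAP, with 82.8 ± 55.0 and 23.4 ± 20.3 CPM, and neither has enough counts to place its start.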

How the data were processed

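Trizol was used on flesh, RNA under 100 nt was purified from a gel, and Illumina small RNA libraries were made, per the labels' protocols. Tools named in the submitters' processing notes are fastp and BWA, with no role or version. Not given in the sources used here are the build, the miRNA reference and the rule for reads that match several names, so a name may hold reads of a related sequence. Each deposited table holds raw counts per miRNA name for 1 library, with no normalization by the authors.

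Groups and replicate numbers came from the titles. The counts of the 18 libraries were fitted together with edgeR 4.0.16 (R 4.3.3), after filterByExpr (minimum count 10), with TMM factors, a mean per age and the quasi-likelihood F test. Benjamini-Hochberg adjusted p under 0.05 was called. SEs are the fold change over the root of F. Log2 CPM for likeness used a prior count of 2. Alternatives were DESeq2 1.42.0, RLE or no factors, no filter, only the 2 ages compared, a replicate block and each library left out. The fit was tested on simulated data. All 18 replicate pairs differed beyond sampling noise (chi-square over names).

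Named were hbr-miR6485, the 5 names and the 3 of known families with the highest r to it, the 5 with the largest fold change at 30 against 20 DAP, the 5 with the highest share at 30 DAP, and its 2 neighbours on each side and the most abundant name among known families at 30 DAP. The members, lists and rules were chosen with earlier results of these data known. A test planned in the second set of libraries was not run.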

Additional observations from a re-analysis of the deposited data

How the results depend on the processing

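For hbr-miR6485 the log2 fold change for 30 against 20 DAP was 5.26, and moved by more than the spread between replicates (0.30) only without scaling factors (4.69) and when set against the other names of known families (4.87), an alternative chosen after seeing the data. Leaving out each library of these ages gave 5.13 to 5.39. For 20 against 10 DAP the value of 2.16 ranged from 1.58 to 4.06 when 1 library was left out. It was 4.06 without replicate 3 of 10 DAP, the library with 6 of 7 counts, and a fit of these 2 ages alone gave no value, since the name then fell below the filter. For 30 against 0 DAP the value of 9.03 became 8.01 without scaling factors and 9.33 (SE 1.05) by DESeq2, and ranged from 8.48 to 9.49 with 1 library left out. Its size rests on 2 counts at 0 DAP.

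The share at 30 DAP was 94.3% without scaling factors and 96.1% to 96.7% with 1 library left out. Place 9 among known families held without scaling factors and with each 30 DAP library left out. Factors act on all names of a library alike, so the place could hardly change with them. The count of names called for 30 against 20 DAP, 40, became 93 without scaling factors, with 13 higher and 80 lower, and ranged from 31 to 41 with 1 library left out. By Spearman's rho 1 of the 5 names most like hbr-miR6485 stayed among the first 5. No fold change of hbr-miR6485 changed sign. For 30 against 20 DAP other names did, such as cme-miR159a, at 0.37 by edgeR with TMM factors and -0.23 on the log2 scale from unscaled group means. Causes were not tested.

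Replicate numbers were not taken as pairs, which would need every same-numbered pair of libraries to deviate together with a correlation over 0.1. Over the 45 such pairs it ran from -0.318 to 0.814 with a median of -0.03, and 18 were over 0.1. With the replicate block the 3 fold changes were 5.25, 2.18 and 9.04, and 41 names were called for 30 against 20 DAP.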
